A study of Mus musculus with 2 samples.

Results

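The fibrinogen genes and the clotting factor genes made by the liver were followed through the RNA of the fetal mouse liver. Members were 10 genes, matched by symbol to the Ensembl identifiers of the deposited tables: the fibrinogen chain genes Fga, Fgb and Fgg, prothrombin (F2), factors V, VII, IX and X (F5, F7, F9, F10), protein C (Proc) and kininogen 1 (Kng1). They are 10 of the 43346 genes in the tables, and all 10 held at least 10 counts over the libraries, the minimum for testing. The series holds 1 group, liver of C57BL/6J embryos at embryonic day 14.5, with 2 libraries that the labels call biological replicates 1 and 2. Both come from littermates of mixed sex, for which the labels name no genetic change and no treatment, and each is a stranded paired-end library of polyadenylated RNA longer than 200 nt. The labels do not say how many embryos or litters were pooled, so the spread between libraries may be partly technical.

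Fibrinogen is secreted by liver cells as a pair of identical units, each built from an alpha (Aα), a beta (Bβ) and a gamma (γ) chain. Thrombin, the active form of prothrombin, cuts small peptides from the alpha and beta chains so that fibrin strands form. Factor VII starts the cascade with tissue factor, factors IX and X carry it on, factor V is the cofactor of factor X, protein C switches factor V off, and kininogen carries the bradykinin peptide and takes part in contact activation. Prothrombin, factors VII, IX and X and protein C all need a vitamin K-dependent change to bind calcium.

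Gene rows summed to 102720920 expected counts for replicate 1 and 65640933 for replicate 2, with mean fragments of 214 and 303 nt. Both libraries carried the defining genes of liver cells: 8 of 8 hepatoblast markers reached 1 TPM, with summed levels of 23450 and 17861 TPM and albumin (Alb) at 10323.5 and 8911 TPM. All 6 erythroid markers did as well, summing to 348385 and 483942 TPM. The lists of megakaryocyte, macrophage, endothelial and stellate markers summed to between 40.4 and 498 TPM in each library, with the macrophage marker Cd163 at 0.02 and 0.01 TPM. The 5 decidual and placental markers summed to 0.31 and 0.10 TPM, with Gcm1 at 0 in both. In an organ sample, fewer cells of a type and less RNA per cell cannot be told apart.

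Several of these genes make more than 1 chain from 1 gene, and the sequences below show where the forms part. They are RNA-sense coding sequence of GENCODE M21 (build GRCm38, the build of the mm10 tables), 5′ to 3′. Lower case marks the last 30 bases that both forms share, and capitals mark bases of that form alone. The γ chain either splices from exon 9 to exon 10 (the common γ form, capitals at chr3:83014835-83014849) or reads on past the end of exon 9 and stops there (the γ′ form, capitals at chr3:83014308-83014343). The stretches in capitals run to the stop codon, so the common γ form adds 4 residues and the γ′ form adds 11 residues after the fork.
Common γ form: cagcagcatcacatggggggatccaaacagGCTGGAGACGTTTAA
γ′ form: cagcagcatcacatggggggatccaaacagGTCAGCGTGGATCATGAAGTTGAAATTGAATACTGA

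The alpha chain forks at the same kind of site. The common alpha chain reads on for 14 coding bases in exon 5 (chr3:83031980-83031993) and encodes 557 residues. The other form splices to exon 6 (first 60 bases at chr3:83032701-83032760) and encodes 789 residues, the extended alpha chain (αE). Both ends are printed because the share of each chain end is measured below.
Common α form: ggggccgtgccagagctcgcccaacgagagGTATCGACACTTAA
αE form: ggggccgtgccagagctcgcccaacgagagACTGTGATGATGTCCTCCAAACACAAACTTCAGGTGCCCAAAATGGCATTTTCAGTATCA

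Kininogen forks inside exon 10. One form splices on to exon 11 (first 60 bases at chr16:23081478-23081537) and encodes the low-molecular-weight chain of 432 residues. The other form reads on in exon 10 (first 60 bases at chr16:23079052-23079111) and encodes the high-molecular-weight chain of 661 residues, which carries the parts that bind prekallikrein and factor XI.
Low-molecular-weight form: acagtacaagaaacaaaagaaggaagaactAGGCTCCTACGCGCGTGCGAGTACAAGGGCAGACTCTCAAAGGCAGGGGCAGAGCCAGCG
High-molecular-weight form: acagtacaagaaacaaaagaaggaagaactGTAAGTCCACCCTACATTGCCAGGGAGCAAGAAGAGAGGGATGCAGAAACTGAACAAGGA

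The 3 fibrinogen genes were all among the higher genes of the liver in both libraries. Levels are in TPM, the authors' abundance unit scaled for length and library size. Fgg (ENSMUSG00000033860, chr3:83007724-83015049, plus strand) stood at 239 TPM in replicate 1 and 169 TPM in replicate 2, a mean of 204 ± 49.7 (SD, n = 2). Fga (chr3:83026076-83033627, plus strand) stood at 195 and 104 TPM, a mean of 150 ± 64.1. Fgb (chr3:83040141-83049863, minus strand) stood at 177 and 84.2 TPM, a mean of 130 ± 65.3. Replicate 1 was the higher library for each chain, and the ranges of the 3 chains overlapped. By mean TPM they ranked 299th, 406th and 473rd of all genes.

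Prothrombin, the precursor of thrombin, lay at the level of the fibrinogen chains on TPM. F2 (chr2:91625320-91636414) stood at 194 and 172 TPM, a mean of 183 ± 15.4 and the narrowest spread of the 5 leading genes. F10 (chr8:13037308-13056676), whose product cuts prothrombin, stood at 40.4 and 28.55 TPM. The levels of factors VII and IX were far lower: F7 (chr8:13026034-13035809) stood at 5.55 and 4.32 TPM. F9 (chrX:59999464-60030759), the gene affected in hemophilia B, was the lowest member at 1.70 and 1.13 TPM.

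The genes that regulate or assist these proteases differed widely in level. F5 (chr1:164151838-164220277), the cofactor of factor X, stood at 7.95 and 6.60 TPM. Proc on chromosome 18, whose product inactivates factors V and VIII, stood at 69.4 and 64.99 TPM, the smallest relative gap of the 10 genes on TPM. On the scaled counts compared below, F5 and F2 had smaller gaps than Proc. Kng1 (chr16:23057865-23082078) stood at 218 and 171 TPM, a mean of 195 ± 33.8, second only to Fgg.

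Ordered by mean TPM the genes ran Fgg, Kng1, F2, Fga, Fgb, Proc, F10, F5, F7 and F9, and the first was 144 times the last. The first 5 did not separate: each overlapped the next in order, with ratios of means between 1.05 and 1.22. From Fgb downward no neighbours overlapped, although each comparison rests on 2 libraries and no test was made. The widest step was from F10 to F5, a ratio of 4.74. Together the 10 genes took 0.291% of the counts on genes in the first library and 0.224% in the second. The fibrinogen chains made up 53.2% of their summed TPM in replicate 1 and 44.4% in replicate 2.

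**Figure D1:**
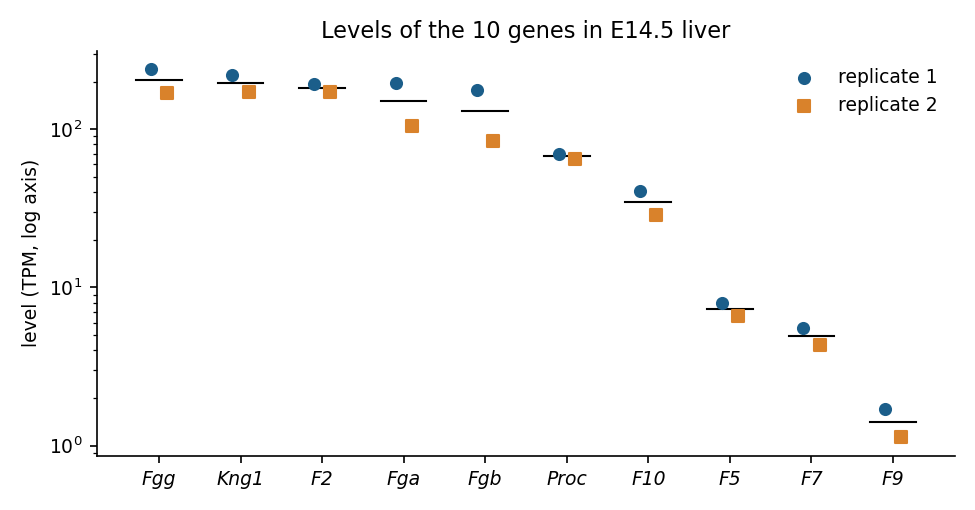
Level of each of the 10 genes in TPM (log axis) in replicate 1 (circles) and replicate 2 (squares), with the mean as a bar, ordered by mean. The first 5 genes overlap between the libraries, and F9 lies at 1.70 and 1.13 TPM.

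The order of the 3 chains differed between the mm10 and mm9 tables. On TPM, the log2 ratio of Fgb to Fga was -0.14 in replicate 1 and -0.31 in replicate 2, and that of Fgg to Fgb was 0.44 and 1.01. On the authors' RPKM of the older mm9 tables, Fgb was the highest chain at 94.2 in R1 and 52.8 in R2. Fga stood there at 86.4 and 39.6 RPKM, and Fgg at 54.1 and 44.4 RPKM. Prothrombin (F2) lay below all 3 chains there, at 36.5 and 37.9 RPKM. R1 and R2 are 2 runs that the files do not tie to replicate 1 or 2.

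The Fgb models differ in their 3′ end. The mm10 model of Fgb is 3810 nt long, with 1446 coding bases and a last exon of 2494 nt. The mm9 model of the same transcript is 1644 nt long, with a last exon of 388 nt. A deposited contig of pooled signal 83.8 (mm9, chr3:82844067-82849895, minus strand) runs 2102 nt past the end of the mm9 model. Fgb held the most counts of the 3 chains, 80165 and 29191, against 49424 and 20261 for Fga and 45405 and 23756 for Fgg. Counts are not scaled by length and do not order the chains. The part of the model lengths in the order was not tested.

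Whether the libraries differ in these genes was tested with an exact conditional binomial test on counts scaled by edgeR's TMM factors. A gene was called where its adjusted p was under 0.05 and the libraries differed 2-fold or more. Of 17906 genes tested, 8.33% were called (4.53% lower and 3.8% higher in replicate 2), and 0 of the 10 clotting genes. Without the fold minimum, 8 of the 10 had an adjusted p under 0.05 and 9 an unadjusted p under 0.05, against 60.8% and 63.7% of all genes tested. That test covers counting error only. With edgeR's exact test and the common dispersion of all tested genes, a coefficient of variation of 24.96%, 0 of the 10 had an adjusted or an unadjusted p under 0.05, against 6% of all genes unadjusted and 1.36% called with it at 2-fold. That dispersion was estimated from the same 2 libraries taken as 1 group, so the differences tested also set their own error. The edgeR p-values here and below are therefore not a separate check of the binomial test. Both tests compare these 2 libraries, not conditions.

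By size, the fibrinogen alpha and beta chains showed the widest gaps between the libraries among the 10 genes. Fgb was 1.75-fold lower in replicate 2 (log2 -0.81, 95% counting interval -0.83 to -0.79). Fga was 1.56-fold lower (log2 -0.64, -0.66 to -0.61). The third chain, Fgg, was 1.22-fold lower (log2 -0.29, -0.31 to -0.26). With edgeR's exact test the unadjusted p was 0.117 for Fgb, 0.216 for Fga and 0.578 for Fgg. Among tested genes of at least 1 TPM, 4.60% had a log2 difference at or below that of Fgb and 8.01% at or below that of Fga.

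The other 7 genes lay closer to 0 than Fga and Fgb. F10 was at -0.40, F9 at -0.35, Kng1 at -0.24 and F7 at -0.14 on the log2 scale. F5 (0.01), F2 (0.05) and Proc (0.10) lay on the other side. The median of the 10 was -0.26, beside -0.002 over all genes tested, and 7 of 10 were lower in replicate 2. Scaling on the spike-in RNAs moved the median of all genes tested to 0.65 and left Fgb alone lower. On the TPM ratio all 10 genes were lower. The median TPM ratio of the 11572 tested genes averaging at least 1 TPM was -0.23, beside -0.015 for these genes on counts. The hepatoblast markers had a median log2 difference of -0.03 (4 of 8 lower), with Alb at 0.01 and Afp at -0.52, and the erythroid markers one of 0.17. The part of cell composition and of fragment length in the gaps was not tested.

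**Figure D2:**
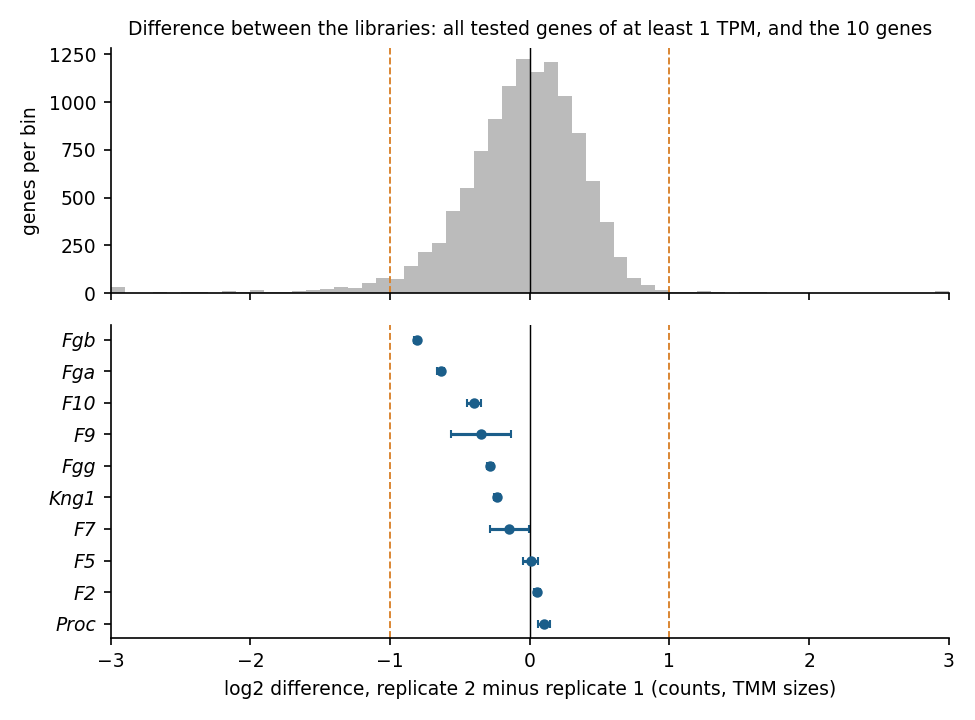
Upper panel: number of genes per bin of 0.1 in log2 difference, replicate 2 minus replicate 1, for tested genes averaging 1 TPM or more (values beyond 3 are drawn in the end bins). Lower panel: the 10 genes with 95% counting intervals, Fgb at -0.81 and Proc at 0.10, all inside the dashed 2-fold lines.

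The 2 fibrinogen chain forks gave different shares in the 2 libraries and in each kind of file. The authors' transcript tables gave the γ′ form 43.8% of Fgg in replicate 1 and 59.1% in replicate 2, so the leading form changed between libraries. The αE form had 27.4% and 36.4% of Fga, and the common chain led in both. In the mm9 transcript table the shares were lower, at 9.74% and 9.49% for γ′ and 15.9% and 11.5% for αE. The mm9 models differ from the mm10 models in length, with 1564 nt against 1695 nt for the common γ form.

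Junction reads, counted over both mm9 runs, gave a view of the forks without transcript models. Reads across the last intron of Fgg, which only the common γ form removes, were 2788, or 26.2% of the 10638 across the intron before it (23.6% in R1 and 31.6% in R2). In Fga the intron to exon 6, removed only in αE, held 1109 reads, or 39.4% of the 2817 before it (43.0% in R1 and 31.6% in R2). Against the median of the gene's other introns, the last intron held 19.6% in Fga and 42.1% in Fgg. Successive introns of 1 gene differ without any fork. The highest intron was 2.87 times the lowest in Fgb, which has no fork, and its last intron held 287% of the reads of the one before. The ratios at the forks are therefore a description and not a measured share.

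**Figure D3:**
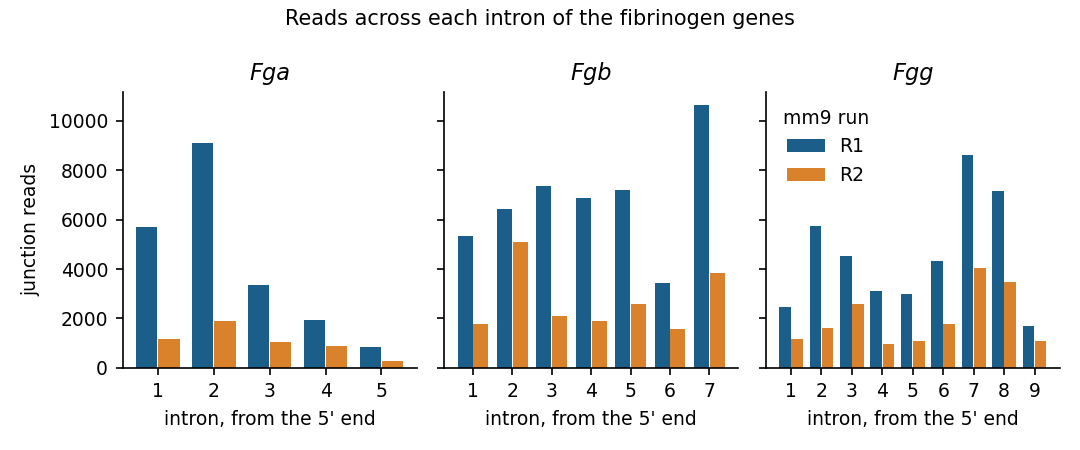
Reads across each intron of Fga, Fgb and Fgg in the mm9 junction file, by run (R1, R2), with introns numbered from the 5′ end. The last introns of Fga and Fgg hold 1109 and 2788 reads in all, the lowest of each gene, and the last intron of Fgb holds 14475, the highest.

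The low-molecular-weight form was the leading form of Kng1 in both sets of tables. It had 70.15% of Kng1 in replicate 1 and 51.5% in replicate 2 of the mm10 tables, and 44.1% in R1 and 38.4% in R2 of the mm9 transcript table. The high-molecular-weight form had 19.9% and 26.5%, and a further form, which splices from exon 10 to a site inside the long exon 10, had 9.21% and 12%. A short model had 0.73% and 9.85%. At the end of exon 10, 7024 of 7420 junction reads (94.7%, exact 95% interval 94.1 to 95.2) went to exon 11 and 396 (5.34%, 4.84 to 5.87) to the site of that further form. The intron before held 7983 reads. Reads of the high-molecular-weight form cross no junction at this point. The mm9 transcript table gave the high-molecular-weight form 16.6% and 15.1%.

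Among the 4 forks factor X had the widest ratio between the transcript estimates and the junction reads. The leading model of the mm10 tables (ENSMUST00000063820), which encodes 481 residues, had 60.6% and 45.65%. A model whose last intron starts 10 nt further upstream, called the -10 form here, had 21.25% and 35.4%. A -4 form, with a donor 4 nt upstream, had 6.1% and 5.79%. Both keep 114 coding bases of the last exon, against 590 in the leading model. The joints are printed because the donors of these forms lie only a few bases apart. Lower case marks the last 30 bases of the exon before, and capitals the first 15 bases of the last exon (chr8:13055293-13055307).
Leading F10 form: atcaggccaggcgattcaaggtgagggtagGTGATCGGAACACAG
-10 form: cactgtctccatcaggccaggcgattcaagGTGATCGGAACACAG
-4 form: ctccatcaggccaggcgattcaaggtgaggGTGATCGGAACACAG

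Of 2532 junction reads at these 3 donors, 2458 (97.1%, exact 95% interval 96.3 to 97.7) used that of the leading form. Models ENSMUST00000033821, with a mean of 12.5% of F10 in the mm10 tables, and ENSMUST00000168257 share that donor. Its reads therefore cannot be assigned to the leading model alone. The donor of the -10 form had 49 reads (1.94%, 1.44 to 2.55) and that of the -4 form had 25 (0.987%, 0.640 to 1.45). These intervals cover counting error only. The mm9 transcript table gave the -10 form 45.8% and 59.0%, so both transcript tables were far above the junction share. The -10 form is a model of 1449 nt that starts at its start codon, against 2503 nt for the leading one, so the models also differ at both ends. At the first intron of the numbered F10 model (ENSMUST00000033821) there were 12 reads, against 936 across the next. The first intron of ENSMUST00000063820, which ends at another site, held 0 reads.

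**Figure D4:**
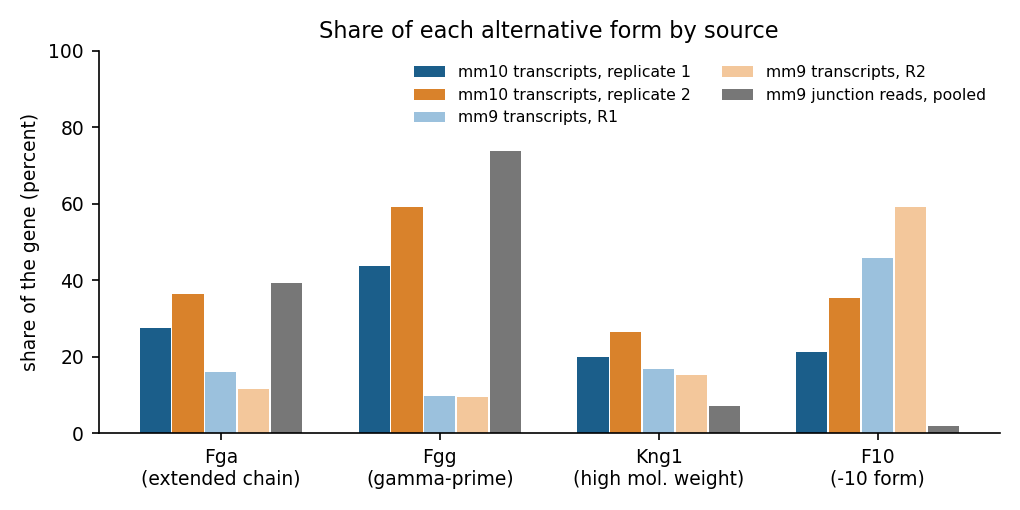
Share of 4 alternative forms in percent of their gene, from the mm10 transcript tables (replicates 1 and 2), the mm9 transcript table (R1, R2) and pooled mm9 junction reads. For the αE form of Fga the junction bar is the ratio of the last 2 introns (39.4%), for the γ′ form of Fgg it is 100% less that ratio, for the high-molecular-weight form of Kng1 it is the share of intron 9 reads not found after exon 10 (these 3 are ratios between introns, not measured shares), and for the -10 form of F10 it is the share at its donor (1.94%).

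For the remaining genes the mm10 tables hold 1 model or 1 leading model. Fgb, F5, F7, F9 and Proc have 1 quantified model each there, so those tables cannot show other forms of these genes. Proc is split between models in the mm9 transcript table, as given below. The leading model of F2 had 99.0% and 99.2% of prothrombin RNA. In the mm9 junction file 97 of the 98 introns of the numbered models held reads. Reads outside annotated introns were 3773 of all reads within the 10 genes, or 1.06%, spread over 706 junctions, and 33 of these junctions held at least 10 reads.

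Protein C had the most reads outside annotated introns, 7.53% of its own, the 3 leading ones within the span of its first intron. That intron held 2652 reads at its annotated sites. A junction that joins the same upstream exon to a site 4 nt away from the start of exon 2, and that no mm9 model holds, had 799 reads. The next ones, of 336 and 231 reads, lie on either side of a stretch of 64 nt inside that intron. The single mm10 model, ENSMUST00000171765, uses that shifted site with another upstream exon, and its own first intron held 7 reads. In the mm9 transcript table this model had 15.2% and 16.4% of Proc RNA.

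Factor V had 1 intron, the sixth, with no read at its annotated sites. A junction shifted by 2 nt at both ends (mm9, chr1:166109707-166111740) held 204 reads, 105 in R1 and 99 in R2, beside a median of 218.5 over the 24 introns of F5. The joint of exons 6 and 7 in GENCODE M21 is printed to show the letters at that place. Exon 6 ends in AG, the letters with which introns normally end too, and the bases of the intron itself were not used here. Capitals mark the first 15 bases of exon 7 (chr1:164181612-164181626).
F5 exons 6 and 7: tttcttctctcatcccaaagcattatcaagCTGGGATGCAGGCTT

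Junctions that join 2 introns of a numbered model, and so leave out an exon, numbered 30 over the 10 genes and held 404 reads. In F2 a junction that leaves out exon 4 held 86 reads, or 1.28% (exact 95% interval 1.02 to 1.57) of the skip and the weaker flanking junction together. One that leaves out exon 2 held 44 (0.929%, 0.676 to 1.24). In Kng1 a junction from exon 5 to exon 8 held 188 reads (2.31%, 1.99 to 2.66), with 140 in R1 and 48 in R2. In F9 a junction that leaves out exon 6 held 8 reads, all in R1, beside 25 and 61 on the flanking introns, which is 24.2% of 33 reads (11.1 to 42.3). In F10 the highest such share was 14.3%, from 2 of 14 reads (1.78 to 42.8), beside 12 and 936 on the flanking introns. In the other 8 genes none was above that of Kng1. The junctions next in order in Kng1 held 63 reads, all of them in R1, and 43 reads. In Fga, Fgb and Fgg the leading unlisted junctions held 13, 14 and 8 reads. Of the 3 leading ones in each chain, 8 of 9 lay within 3 nt of annotated sites at both ends. In F7 the leading one held 5 reads and in F10 7 reads.

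The levels of neighbouring genes in the 3 clusters ranged from 0 to those of the leading members. Within the cluster Fgg, Fga and Fgb follow each other with no other protein-coding gene between them. Plrg1, a splicing factor gene 5659 nt beyond Fgb, stood at 33.4 and 25.7 TPM. On the other side Lrat and Rbm46 stood at 0.66 and 0.58 and at 0.22 and 0.24 TPM, and Dchs2 beyond Plrg1 was at 0 in both libraries. On chromosome 8, F7 and F10 lie side by side and differed 7.28-fold and 6.61-fold. Proz, protein Z, the next gene, stood at 23.9 and 24.2 TPM, and Mcf2l before F7 at 0.41 and 0.54 TPM. Beside Kng1, its paralog Kng2 stood at 11.9 and 7.53 TPM. Reads of close copies can be assigned to either, so the split between Kng1 and Kng2 is uncertain. Hrg and Fetub, relatives of the kininogens in the same cluster, stood at 0.27 and 0.16 and at 1.30 and 1.53 TPM, while Eif4a2, a translation factor gene 25366 nt beyond Kng1, stood at 148 and 107 TPM.

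The promoters of Fgb and Fgg are printed because the genes share a cluster and a level. The RefSeq start of Fga lies downstream of the GENCODE M21 start of the gene, so its window overlaps the transcript and is not printed. The printed promoters run from -120 to -1 before the RefSeq start (RefSeq, GRCm38.p6), and capitals mark matches to CTGGGAA, the core of the interleukin 6 response element, searched on both strands. The positions are chr3:83049864-83049983 for Fgb (minus strand) and chr3:83007604-83007723 for Fgg.
Fgb: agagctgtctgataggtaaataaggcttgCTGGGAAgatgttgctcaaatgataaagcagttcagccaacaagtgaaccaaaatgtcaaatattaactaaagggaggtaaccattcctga
Fgg: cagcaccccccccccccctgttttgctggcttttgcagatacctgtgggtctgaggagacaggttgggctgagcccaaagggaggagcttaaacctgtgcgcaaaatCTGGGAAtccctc

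CTGGGAA was found in 11.1% of the 32851 RefSeq promoter windows of 300 nt. Among the 8 members in that table (Proc and Kng1 are named only) it was found in Fgg at -13, Fgb at -91 and F9 at -82. The TATA box core TATAAA was found in 13.6% of all windows and in none of the 8. The Fga window is counted among the 8 and held neither motif, but it overlaps the transcript, so its promoter was not read. A match is a description of the letters and not a bound site.

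Liver transcription factors and genes of interleukin 6 signalling were measured in the same RNA. Of 14 such genes, 12 passed 1 TPM in each library, and the highest were Hnf4a at 22.0 and 23.0 TPM, Cebpa at 14.3 and 17.8, Stat3 at 16.8 and 14.5, Foxa3 at 11.9 and 13.8 and Cebpb at 16.4 and 5.36. Il6 itself was at 0.09 and 0.01 TPM. Cebpb, an acute-phase factor, was the 1 gene of 14 called by the binomial test, beside 8.33% of all genes tested, and its counts fell by 1.42 on the log2 scale in replicate 2. With edgeR's exact test its adjusted p was 0.245.

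The other clotting genes were present at lower levels than the leading members, apart from a few. Of 9 other factors and cofactors found, 6 reached 1 TPM in both libraries. F12, the start of the contact pathway, led at 51.1 and 67.9 TPM, and the next were F13b (15.45 and 8.63), Kng2, F11 (8.83 and 7.10) and Vwf (8.60 and 5.41). Tissue factor (F3) and factor VIII (F8), which are made mostly outside hepatocytes, stood at 0.20 and 0.24 and at 0.44 and 0.20 TPM.

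The highest genes of the lists were inhibitors. Of 11 anticoagulant genes, 8 reached 1 TPM in both libraries. Serpinc1 (antithrombin) led at 296 and 224 TPM, although its count-based log2 difference was 0.34 higher in replicate 2, followed by Serpind1 (heparin cofactor II) at 108 and 99.6 TPM and Serping1, Proz and Serpina10 at means of 33.0, 24.1 and 18.6 TPM. Among 9 fibrinolysis genes, 4 reached 1 TPM. Serpinf2 (antiplasmin), which blocks plasmin, was the highest of all the clotting lists at 460 and 513 TPM. Plg, the plasmin precursor, stood at 191 and 162 TPM and Cpb2 at 56.1 and 58.9. The receptor Plaur stood at 1.85 and 1.5 TPM, and the activators Plat and Plau at 0.72 and 0.57 and at 1.27 and 0.72 TPM. Fgl1, a fibrinogen-like gene, was the 1 of these 9 called, beside 8.33% of all genes tested, at 0.26 and 0.10 TPM, and its counts fell by 1.24 on the log2 scale in replicate 2. With edgeR's exact test 0 of these 9 had an unadjusted p under 0.05, beside 6% of all genes.

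The machinery that modifies and exports the factors was present. Of 9 genes of the vitamin K cycle and of secretion, 8 reached 1 TPM in both libraries. Vkorc1, which regenerates vitamin K, stood at 71.1 and 104 TPM. Mcfd2 and Lman1, which carry factors V and VIII out of the endoplasmic reticulum, stood at 33.7 and 31.95 and at 27.3 and 21.8 TPM. Ggcx, the carboxylase that modifies prothrombin and factors VII, IX and X, stood at 9.33 and 10.5 TPM. The median log2 difference was 0.06 for this list, -0.12 for fibrinolysis, 0.01 for the anticoagulants, -0.47 for the other factors and 0.21 for the liver factors, beside -0.26 for the 10 genes. The binomial test with a 2-fold minimum called 8.33% of all genes tested. It called 0 of the 9 other factors, 0 of the 11 anticoagulants and 0 of the 9 vitamin K and secretion genes. Their counts at an unadjusted p under 0.05 were 5, 8 and 5, beside 63.7% of all genes tested. EdgeR's exact test gave 0 in each at an unadjusted p under 0.05, beside 6% of all genes.

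**Figure D5:**
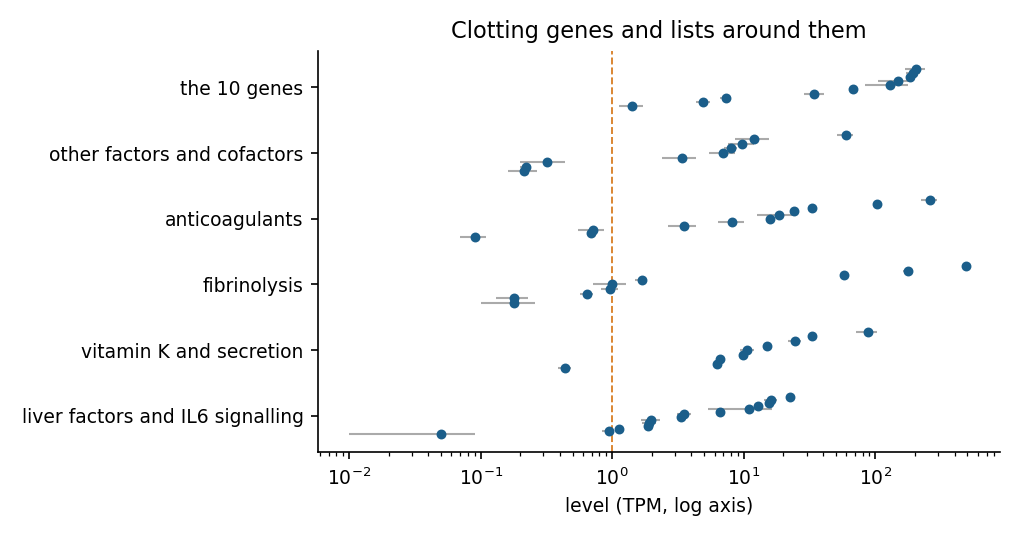
Mean level of each gene in TPM (log axis) in the 10 genes and 5 lists around them, with a line from the lower to the higher library and a dashed line at 1 TPM. The 10 genes run from 1.42 TPM (F9) to 204 TPM (Fgg), and Serpinf2 at 486 TPM is the highest point.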

How the data were processed

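The members and gene lists were chosen with earlier results of these data known. Per the file headers, the authors' mm10 gene and transcript tables hold expected counts, TPM, FPKM and the percent of a gene's abundance per transcript. A deposited note names annotation M4. The aligner is not given in the sources used here. The authors' mm9 tables give RPKM per Ensembl 65 model for 2 replicates, exons among them. The deposited junction file holds a read count per junction with an irreproducible discovery rate (IDR), a deposited score that is smaller for features the replicates share. The deposited contigs hold a pooled signal. In the mm9 exon table each member's exons hold the sum of its transcript estimates, so no exon profile was drawn.

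Symbols came from GENCODE M21 for 42462 of 43346 genes. Klkb1 is not analysed here, and 1 listed gene is not reported here. Non-gene rows (2.92% and 1.91% of counts) stayed out of library sizes. Expected counts were rounded. With 1 group no quasi-likelihood test is possible, so a two-sided exact conditional binomial test compared the libraries, with TMM sizes, at least 10 counts, 0.5 added for folds, Benjamini-Hochberg adjustment, an adjusted p under 0.05 and 2-fold. It was tested on simulated data. Introns are numbered on 1 mm9 model per gene. Intervals for junction shares are exact (Clopper-Pearson, 95%) and cover counting error only, since reads carry no molecular identifiers. Named genes are the 10 members, up to the 5 highest of each list with its called genes, the cluster neighbours and the 3 leading unlisted junctions per member. Il6, F3, F8, Plat and Ggcx were named after their values were seen. Alternatives covered library sizes, count minimums, tests, units, builds and single libraries. Tools were edgeR 4.0.16 and DESeq2 1.42.0 under R 4.3.3, and scipy 1.17.1, numpy 2.4.6, matplotlib 3.10.9 and pandas 2.3.3 under Python 3.11.15.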

Additional observations from a re-analysis of the deposited data

How the results depend on the processing

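The number of clotting genes called was 0 under DESeq2 size factors, total gene counts, counts without globins and spike-in counts. Of all genes tested, 8.29%, 8.34%, 8.14% and 21.7% were called under these. The number was also 0 with count minimums of 1 and 50 and with edgeR's exact test, beside 7.55%, 5.28% and 1.36% of all genes tested. With no minimum of fold it was 8, beside 60.8%. On the log2 ratio of TPM with 0.01 added, which has no test, it was 1, beside 5.88% of tested genes averaging at least 1 TPM. Spike-in scaling turned the log2 difference of 6 genes, to 0.015 for Fga, 0.37 for Fgg, 0.51 for F7, 0.31 for F9, 0.25 for F10 and 0.42 for Kng1. The TPM ratio turned F2 (-0.17), F5 (-0.27) and Proc (-0.10). Spike-in scaling moved the median of all genes tested by more than 0.1, as given above. So did the TPM ratio for the median of tested genes averaging at least 1 TPM. Of the 45 gene pairs ordered by mean TPM, 37 kept their order on mm9 RPKM and 42 to 44 with 1 library left out. All 45 kept it on FPKM and on TPM rescaled without globin and mitochondrial genes. Within a library both of these are TPM times a constant, so only the weight of each library in the mean could change.

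The chain ratios changed sign with the unit. On expected counts, which are not scaled by length, the log2 ratio was 0.61 for Fgb to Fga, 0.054 for Fgg to Fga and -0.56 for Fgg to Fgb. On mm9 RPKM these were 0.27, -0.25 and -0.53, and on the TPM of each chain's leading transcript 0.33, 0.080 and -0.25. With 1 library left out they ranged from -0.31 to -0.14, from 0.30 to 0.70 and from 0.44 to 1.01. On FPKM they kept their values, which was fixed in advance because FPKM is TPM times a constant within a library. The shares of the αE, γ′, high-molecular-weight kininogen and -10 F10 forms averaged 31.9%, 51.5%, 23.2% and 28.3% in the mm10 tables. They were 13.7%, 9.62%, 15.9% and 52.4% in the mm9 transcript table and 39.4%, 73.8%, 7.05% and 1.94% from mm9 junction reads. The first 3 of the junction values are ratios between successive introns, which differ without any fork, and are not measured shares. The cause of these differences was not tested. With 1 library left out the shares ranged from 27.4% to 36.4%, 43.8% to 59.1%, 19.9% to 26.5% and 21.25% to 35.4%. Junctions outside annotated introns fell from 706 to 38 at an IDR of at most 0.1 and to 33 at 10 or more reads. The introns seen were 97 under both, and 91 with both ends in de novo exons.

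No paired analysis was possible because the series holds 1 group. F9, at 541 and 271 counts, has the widest counting interval. The comparison of the 2 libraries cannot be repeated with 1 left out.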
